A study of Mus musculus with 4 samples.

Results

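Plasma cells, the antibody-secreting end stage of the B lineage, were picked out of single-cell transcriptomes of mouse bone marrow by their own product. A member had to hold at least 10 unique molecular identifiers (UMIs, which mark captured transcripts) of Jchain, at least 5% of its UMIs on Ighm, Igha, Igkc and Jchain together, and none of Siglech, a plasmacytoid dendritic cell gene. Of 40545 cells in the files, 39167 passed the limits of 200 to 10000 detected genes and at most 10% mitochondrial UMIs, and 121 of these were members. They were chosen by their measured levels of these genes, so that those levels are described here and not tested. The TLR9-/- libraries 1 and 2 held 50 and 21 members among 10781 and 8918 cells, and the WT libraries 1 and 2 held 30 and 20 among 10573 and 8895. Where 4 values are listed in a row, they follow this order of libraries. Both genotypes were on a C57BL/6 background. TLR9-/- mice carry the knockout in every cell type, so that no difference can be assigned to the loss of the receptor within plasma cells. They were bred in cages separate from the WT mice, and the cage and the genotype cannot be told apart. Mononuclear cells of the bone marrow were captured for 5′ single-cell RNA sequencing, with 1 mouse of each genotype in each of the 2 experiments of the study. No treatment or age was given in the labels. With 2 libraries against 2, the smallest p of an exact permutation test that does not take the 2 experiments into account is 0.333.

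Plasma cells are long-lived residents of the bone marrow. On becoming a plasma cell, a B cell switches off the program led by the transcription factor Pax5, and Prdm1, Irf4 and Xbp1 take over. Xbp1 belongs to the unfolded protein response and enlarges the endoplasmic reticulum (ER), where heavy and light immunoglobulin chains are folded and joined. Survival in the marrow rests on signals such as APRIL, which is bound by BCMA, the product of Tnfrsf17. TLR9, a receptor for unmethylated CpG DNA in endosomes, can drive B cells towards antibody secretion. The study measured circulating IgA in mice of both genotypes.

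Plasma cell markers outside the rule were found in most members. A UMI of Xbp1 was found in 118 of the 121 members, of Mzb1 in 113 and of Sdc1 (CD138, a surface proteoglycan) in 69. Igkc, one of the 4 genes of the rule, had a UMI in 117. Sdc1 was detected in 54.0%, 85.7%, 43.3% and 55.0% of the members. In mature B cells, which serve as the comparison below, it was detected in 3.03%, 1.82%, 1.61% and 1.65% of the cells. The members held 11.7%, 11.1%, 7.62% and 9.63% of all Sdc1 UMIs of their libraries, so that Sdc1 was not particular to them. The median depth of the members was 9204.5, 17508, 7257 and 11557 UMIs against 1404.5, 1845, 1220 and 1576.5 UMIs in mature B cells, and the part of depth in this gap was not tested. Members spanned 680 to 46254 UMIs. Ms4a1 (CD20), which plasma cells lose, had a UMI in 10 members, and Ighd in 2.

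The rule left a clear margin in Jchain (ENSMUSG00000067149, GRCm38, chromosome 5 from 88519809 to 88527891, minus strand), the joining chain of polymeric IgA and IgM. The lowest member had 17 Jchain UMIs. The share of the 4 genes of the rule came down to 5.20% and 5.46% in the members nearest its limit. Just outside, a cell of the TLR9-/- library 2 with 765 Jchain UMIs had a share of 4.83%, and a cell of the WT library 2 with 5 Jchain UMIs had a share of 11.5%. Of 143 cells with 10 or more Jchain UMIs, 16 were left out for a low share and 6 for a Siglech UMI, and 4 of these 6 had at least 20% of their UMIs on immunoglobulin genes. The rule does not count IgG or lambda chains, so that a cell rich in those alone could be missed.

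Most Jchain UMIs lay in the members, which held 97.4%, 83.5%, 89.9% and 93.5% of all Jchain UMIs of their libraries. Neutrophils, which do not make it and show the background of free RNA, had a Jchain UMI in 3.64%, 0.404%, 1.96% and 1.49% of cells, at a median depth of 2474, 3418, 2239.5 and 2595 UMIs. Cell barcodes were reused between libraries, with 469, 377, 482 and 406 barcodes of the 4 files found in another file. Among the members, 2, 1, 0 and 1 barcodes recurred, and none of these was a member in the other library.

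Some members also carried transcripts of other cells. Over the 5 neutrophil markers, all of which were detected in both TLR9-/- libraries and 4 in each WT library, the members had 2560, 8998, 33 and 82 UMIs. In each TLR9-/- library a single member held most of them, 2223 UMIs (86.8%) and 7878 UMIs (87.6%). At least 10 neutrophil UMIs were found in 5, 4, 1 and 0 members. The most abundant of these genes was S100a8 in the TLR9-/- library 1 and in both WT libraries, and S100a9 in the TLR9-/- library 2. Erythroid markers, led by Hbb-bs, went the other way, with 40 and 4 UMIs in TLR9-/- members and 1061 and 479 UMIs in WT members, of which a single cell of each WT library held 97.2% of the Hbb-bs UMIs. Monocyte markers were led by Lyz2 and had 210, 68, 83 and 68 UMIs. The T cell markers Cd3e, Cd3d, Trac and Trbc2 were at 0 in all members.

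**Figure D1:**
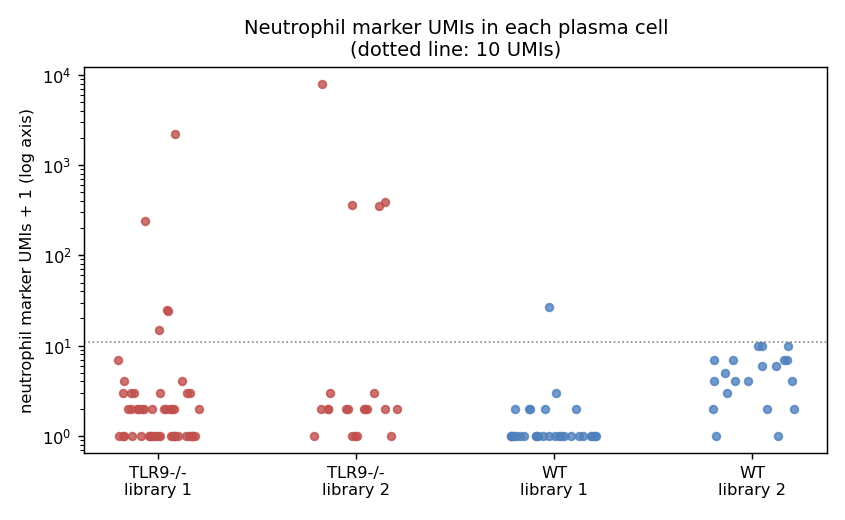
Each point is a plasma cell, placed by its UMIs of the 5 neutrophil markers plus 1 (log axis) in each library, and the dotted line marks 10 UMIs. The highest members reached 2223 and 7878 UMIs in TLR9-/- against 26 and 9 UMIs in WT.

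Plasma cells were rare in every library, and the genotypes overlapped. They made up 0.464% of the cells of the TLR9-/- library 1 (95% Wilson interval 0.352% to 0.611%) and 0.235% of those of the TLR9-/- library 2 (0.154% to 0.360%). In the WT libraries they made up 0.284% (0.199% to 0.405%) and 0.225% (0.146% to 0.347%). The intervals cover counting error only. The TLR9-/- library 1 stood above the other 3, which lay close together. The mean was 0.350% ± 0.161 for TLR9-/- and 0.254% ± 0.0416 for WT (SD over 2 libraries each), a difference of 0.0953 percentage points that was within the spread of the TLR9-/- libraries (exact permutation test, two-sided, p = 0.667). The difference rested on the TLR9-/- library 1, since it was -0.0188 percentage points without that library. Between the libraries of the same number, TLR9-/- was higher by 0.180 percentage points in those numbered 1 and by 0.0106 in those numbered 2. With at least 20% of the UMIs required on the genes of the rule, the difference fell to 0.0294 percentage points and that between the libraries numbered 2 to -0.0676. Of cells with a UMI of Cd79a or Cd79b (the members counted in), plasma cells made up 1.09% and 0.597% in TLR9-/- mice and 0.485% and 0.386% in WT mice. Here the genotypes did not overlap, at the smallest p this test allows (exact permutation test over libraries, p = 0.333). The cells of this denominator numbered 4594 and 3516 in TLR9-/- mice and 6181 and 5187 in WT mice, fewer in both TLR9-/- libraries. The part of this denominator in the separation of the genotypes was not tested.

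**Figure D2:**
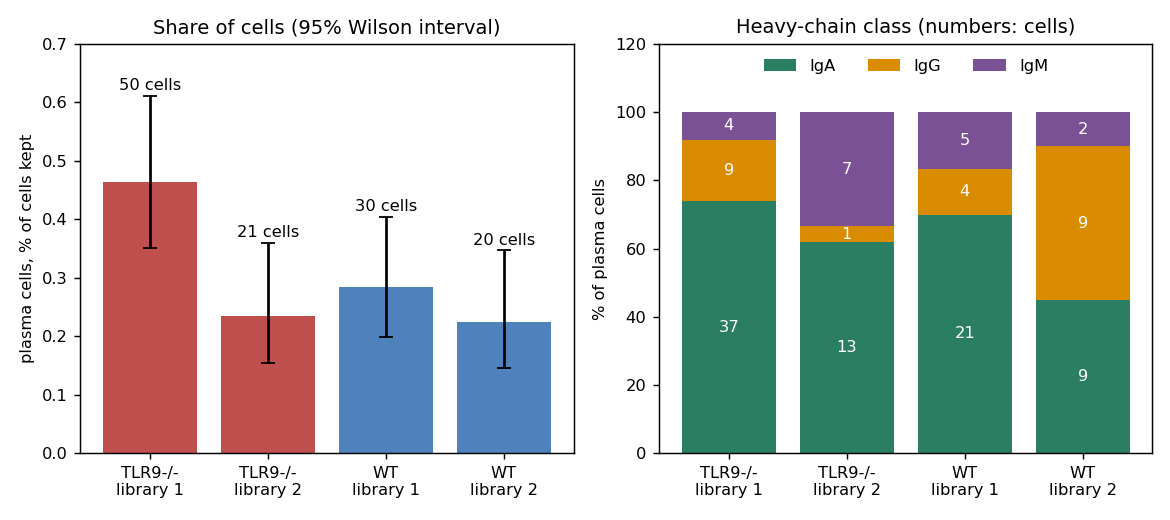
Left, plasma cells as a percentage of the cells kept in each library, with 95% Wilson intervals as error bars. Right, the heavy-chain class of the members of each library as a percentage, with the number of cells in each segment. IgA led with 37, 13 and 21 cells in 3 libraries, and in the WT library 2 IgA and IgG had 9 cells each.

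Tlr9 itself (ENSMUSG00000045322, GRCm38, chromosome 9 from 106222598 to 106226883, plus strand) was not detected in any plasma cell. Its UMIs over all cells numbered 41, 48, 120 and 97, or 0.817, 0.751, 3.85 and 2.34 CPM of all UMIs kept, and those in mature B cells 1, 2, 3 and 11. The gene was thus still read in the TLR9-/- libraries, at lower levels than in both WT libraries, and counts per gene do not show which part of it was read. The 0 among the members allows a UMI in up to 6.00% and 14.3% of TLR9-/- and in up to 10.0% and 15.0% of WT plasma cells. This limits the cells with a captured UMI and not those that express the gene, which was sparse in mature B cells too. Tlr7, the endosomal receptor for single-stranded RNA, had 1, 1, 0 and 2 UMIs in the members, and the adaptor Myd88 had 3, 1, 2 and 1. Tnfsf11 encodes the osteoclast factor RANKL and Tnfrsf11b its decoy receptor OPG, products that were of interest in the B cells of these mice. Both genes and the cytokine gene Il10 were at 0 in all members. The first pair was rare over all cells as well, with 26, 17, 11 and 6 UMIs of Tnfsf11 and 0, 0, 2 and 0 UMIs of Tnfrsf11b.

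Each member was given the heavy-chain class of its leading constant gene, which held at least 81.5% of the heavy-chain constant UMIs of every member. IgA led in 80 of the 121 members (66.1%), IgG in 23 (19.0%) and IgM in 18 (14.9%). None was led by Ighd or Ighe. IgA, the class of mucosal surfaces, led in 37 of 50 and 13 of 21 TLR9-/- members, or 74.0% (Wilson interval 60.4% to 84.1%) and 61.9% (40.9% to 79.2%). In WT mice it led in 21 of 30 and 9 of 20 members, or 70.0% (52.1% to 83.3%) and 45% (25.8% to 65.8%). The genotypes overlapped, since the TLR9-/- library 2 lay below the WT library 1, and between libraries of the same number the share was higher in TLR9-/- in both cases. IgM, the class made before switching, led in 4, 7, 5 and 2 members. Ighg2b led in 5, 1, 2 and 5 members, Ighg2c in 4, 0, 0 and 3, and Ighg1 in 0, 0, 2 and 1. Since the rule counted Ighm and Igha but not the IgG genes, these shares are shares of cells that met it.

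The constant genes were present at levels set by the rule and are given without a test. Igha (ENSMUSG00000095079, GRCm38, chromosome 12 from 113254830 to 113260236, minus strand) had 736, 412, 725 and 693 UMIs per 10000 UMIs of the members. Jchain had 846, 472, 675 and 505 of 10000, and Ighm 50.5, 211, 93.3 and 51.7. Igkc, the kappa constant gene, had 516, 396, 532 and 858. The TLR9-/- library 2 was thus lowest in Igha, Jchain and Igkc and highest in Ighm. Ighg1 had no UMI in either TLR9-/- library and 1098 and 2454 UMIs in the WT libraries, from 3 members and 1 member. All immunoglobulin genes together took a median of 65.7%, 60.5%, 68.7% and 64.6% of the UMIs of a member. Single members ranged from 12.7% to 92.0%, and 98 of the 121 were at 50% or above. The median was 68.8% in IgA, 63.4% in IgG and 57.5% in IgM members. By constant genes, kappa was the leading light chain in 113 members and lambda in 8, of which 4, 2, 1 and 1 came from the 4 libraries in order. The lead could be narrow, down to 51.7% in a kappa and 51.6% in a lambda member. By V gene, Iglv1 led in 8 members and Iglv2 in 1, so that the 2 ways of calling lambda differed.

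**Figure D3:**
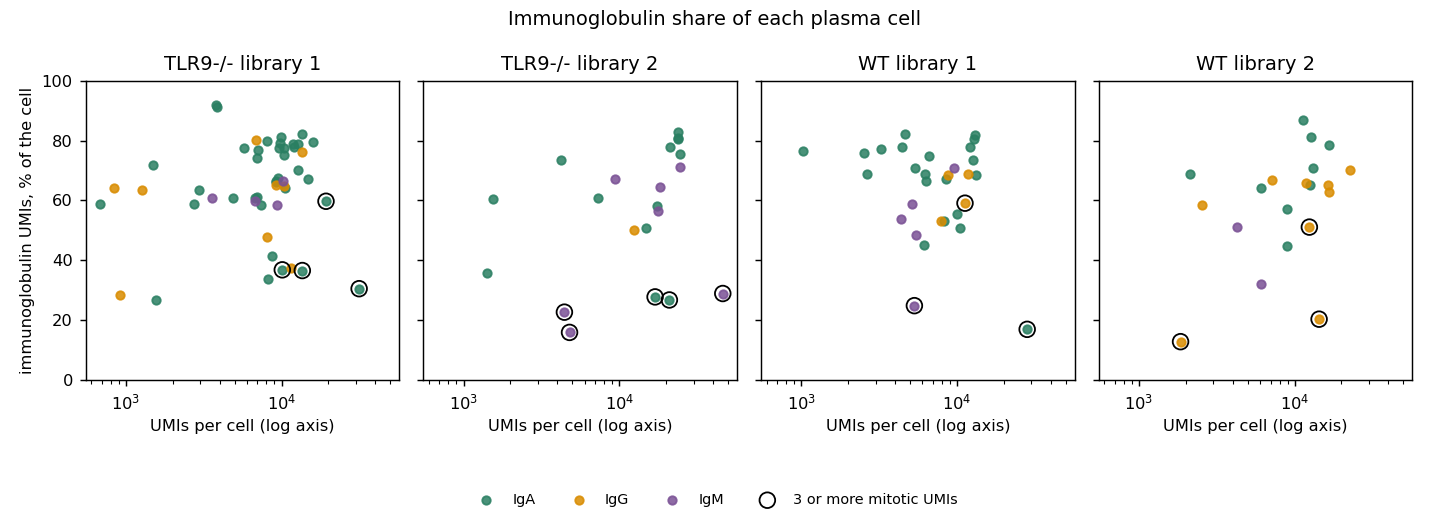
Each point is a plasma cell, with its UMIs on the x axis (log axis), the percentage of these on immunoglobulin genes on the y axis and its colour giving the heavy-chain class. Circles mark the 15 members with 3 or more mitotic UMIs, most of which lie low in the range, with a median of 27.7% against 67.2% in the other 106 members.

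Most members had no transcript of the mitotic genes searched. Plasma cells in the marrow are mostly non-dividing, whereas their precursors, plasmablasts, divide. Of the 121 members, 15 had 3 or more UMIs in all of 15 mitotic genes, with 4, 5, 3 and 3 from the 4 libraries. Of these, 4 lay at 3 or 4 UMIs, none at 5 and the rest above, while another 23 members had 1 or 2, and 83 had 0. The class was cut from this sum and is given as a range of cells. After every member was thinned to 4000 UMIs, 8 of the 101 members deep enough remained in it. The depth of the 15 was greater, with a median of 13600 against 8967 UMIs, and their Xbp1 level was lower, with a median of 14.8 against 39.0 UMIs per 10000 UMIs outside the immunoglobulin genes. They were led by IgA in 7, IgG in 4 and IgM in 4 cases. Markers of T, NK, monocyte, erythroid or basophil lineage reached 3 UMIs in 8 of the 15 and in 14 of the other 106, and at least 10 neutrophil UMIs were found in 5 of the 15 and in 5 of the other 106. Whether captured doublets had a part in this class was not tested.

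Variable (V) genes, which encode the antigen-binding part of each chain, could be read from the 5′ end. A V gene was assigned where it had at least 10 UMIs and at least 50% of the V UMIs of that chain. The assignment rests on gene counts, so that near-identical V genes remain uncertain. Both chains were assigned in 108 members, with 45 heavy and 44 light V genes in 81 different pairs. Ighv1-26 led in 10 members, Ighv1-81 in 9, Ighv1-53 in 7 and Ighv1-72 in 6. Among light chains Igkv10-96, Igkv4-57 and Iglv1 led in 8 members each and Igkv1-117 and Igkv10-94 in 7 each.

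Some pairs recurred within a mouse. In 13 cases, 2 or more members of the same library shared the heavy V gene, the light V gene and the constant gene, and these cases took in 31 of the 108 members (28.7%). They were 11 of 46, 5 of 19, 12 of 27 and 3 of 16 assigned members of the libraries. IgA members made up 29 of the 31, IgG 2 and IgM 0, out of 74 IgA, 20 IgG and 14 IgM members with both chains assigned. The largest group was Ighv1-75 with Igkv10-94 and Igha, in 4 members of the WT library 1. Sequences of the junctions were not used here, so that a shared pair does not show a shared clone. Between libraries, only 3 of the 81 pairs recurred. Ighv1-26 with Igkv4-57 was found in 4 members of the TLR9-/- library 1 and 4 of the WT library 2, with Igha, Ighg2c or Ighm. Ighv5-6 with Iglv1 was found in 1 IgA member of each TLR9-/- library. Ighv11-2 with Igkv14-126 was found in 1 IgM member of the TLR9-/- library 2 and 1 of the WT library 1. This pair is known from B-1 cells, where it makes antibodies to phosphatidylcholine. In the TLR9-/- member Igkv14-126 held only 55.2% of the light V UMIs, near the limit for assignment, against 99.9% in the WT member. The light chain of the TLR9-/- member is therefore uncertain, and whether it was a captured doublet was not tested.

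To see what sets the members apart from the B cells of the same mice, their summed UMIs were compared with those of 1237 mature B cells (132, 495, 186 and 424 in the 4 libraries). These had at least 2 UMIs of Ighd, at least 1 of Ms4a1, fewer than 10 of Jchain and none of Siglech. The edgeR quasi-likelihood test with the library as a block called 564 genes higher and 437 lower in plasma cells among 3512 tested, at a Benjamini-Hochberg adjusted p under 0.05, which is 16.1% and 12.4% of the genes, or 28.5% in all. These counts include 11 immunoglobulin genes called higher and 7 called lower, to which no weight is given. Of the 1001 genes, 991 differed in the same direction in every library. Values are CPM as edgeR computes it from TMM-scaled library totals, and the median log2 fold change of all genes was -0.08. Per cell, without scaling, the median gene had a log2 ratio of 0.64. Of the genes lower in CPM, 28 had more UMIs per cell in plasma cells, and of those higher, 0 had fewer. Adjusted p values below come from this test, and the genes of either rule are not among those tested. Counts in the gene groups stand beside these shares of all genes.

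The regulators of the plasma cell state were higher. Of 8 genes listed, 7 could be tested, 6 were higher and 1 lower, with a median log2 fold change of 3.37. Xbp1 (ENSMUSG00000020484, GRCm38, chromosome 11 from 5520659 to 5525893, plus strand) had 2897, 2544, 2093 and 1981 CPM in plasma cells. In mature B cells it had 38.6, 49.8, 31.9 and 28.3 CPM, far below in every library (log2 fold change 6.00 ± 0.21 SE, adjusted p = 1.2e-05). Creb3l2, a transcription factor of the secretory pathway, was higher by 4.71 on the log2 scale (adjusted p = 0.00015), and Pou2af1, a B lineage coactivator, by 1.74 (adjusted p = 0.0011). Ikzf3 (Aiolos) was the 1 lower gene, at -1.32 (adjusted p = 0.0025), and was singled out after its value was seen. Prdm1 (Blimp-1) was too low to be tested, with 17, 9, 13 and 16 UMIs in plasma cells and 0, 0, 1 and 0 in mature B cells, a ratio of 395 in CPM with a 95% counting interval from 68.0 to 15880.

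Genes for folding and degrading proteins in the ER were higher almost without exception. Of 29 tested, 28 were higher and 0 lower, with a median log2 fold change of 3.58, and the oxidase gene Ero1lb missed the threshold (1.00, adjusted p = 0.0592). Derl3, a part of ER-associated degradation, had 484, 566, 785 and 432 CPM in plasma cells and 7.25, 3.38, 5.32 and 1.28 CPM in mature B cells (log2 fold change 7.24 ± 0.26 SE, adjusted p = 1.2e-05). Creld2, an ER-resident factor of the stress response, was higher by 5.38 (standard error 0.28, adjusted p = 1.9e-05). The most abundant members were Hsp90b1 (GRP94), a chaperone with 3889 to 5073 CPM in plasma cells and a log2 fold change of 4.21, and Mzb1, a cofactor of Hsp90b1 in immunoglobulin assembly with 3354 to 6512 CPM and 3.89. The translocation and export machinery followed, with 32 of 33 genes higher and a median of 2.07, and Sec63 alone did not pass (0.76, adjusted p = 0.153). Its leading genes were Ssr4, a subunit of the translocon-associated complex (4.14), Sec11c, a subunit of the signal peptidase (3.72), and Tram2 (4.35). A list of 11 stress genes of the unfolded protein response, which holds its sensors as well as the targets of Atf4, was sparsely detected, and 8 of them, among them Ddit3 and Trib3, had too few UMIs to be tested. Of the other 3, Atf4 (0.88, adjusted p = 0.010) and the sensor Atf6, which also induces ER chaperones (1.92, adjusted p = 0.0041), were higher, and the median was 0.93.

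Xbp1 and Atf6 are known to act through short elements in the promoters of ER genes, and 4 promoters are printed here to show such elements beside the levels above. The sequences are from RefSeq (GRCm38.p6) and give the 250 bases before the start of the gene, on its own strand. Capitals mark the ER stress element, CCAAT and CCACG with 9 bases between them, on either strand, in Hspa5 (chr2:34771840-34772089), Derl3 (chr10:75893148-75893397) and Creld2 (chr15:88819396-88819645). In Herpud1 (chr8:94386179-94386428) they mark a related element, ATTGG and CCACG with 1 base between them.

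Hspa5: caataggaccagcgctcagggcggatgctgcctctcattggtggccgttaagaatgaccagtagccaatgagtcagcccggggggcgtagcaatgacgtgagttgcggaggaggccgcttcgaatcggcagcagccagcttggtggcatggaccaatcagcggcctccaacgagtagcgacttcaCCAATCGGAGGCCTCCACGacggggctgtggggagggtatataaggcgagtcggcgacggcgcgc

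Derl3: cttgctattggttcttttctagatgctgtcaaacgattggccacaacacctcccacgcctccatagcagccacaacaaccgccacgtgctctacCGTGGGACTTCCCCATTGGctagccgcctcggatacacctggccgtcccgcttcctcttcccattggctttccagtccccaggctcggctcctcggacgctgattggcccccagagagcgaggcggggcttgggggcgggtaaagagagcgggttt

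Creld2: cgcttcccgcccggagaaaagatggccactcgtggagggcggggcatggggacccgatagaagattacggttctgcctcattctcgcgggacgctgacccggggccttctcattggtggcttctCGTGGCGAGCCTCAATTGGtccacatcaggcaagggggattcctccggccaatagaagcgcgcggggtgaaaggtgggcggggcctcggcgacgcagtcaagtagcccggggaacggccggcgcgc

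Herpud1: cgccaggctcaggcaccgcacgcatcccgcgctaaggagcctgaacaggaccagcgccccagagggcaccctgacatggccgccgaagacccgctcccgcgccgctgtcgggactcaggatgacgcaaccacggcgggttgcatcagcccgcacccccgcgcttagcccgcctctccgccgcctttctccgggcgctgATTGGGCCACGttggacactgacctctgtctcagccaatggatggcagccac

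The element begins 65 bases before the start in Hspa5 (BiP, the main ER chaperone), 156 in Derl3, 126 in Creld2 and 52 in Herpud1, a part of ER-associated degradation. Hspa5 was higher in plasma cells by 3.34 on the log2 scale (adjusted p = 0.00011) and Herpud1 by 3.35 (adjusted p = 1.8e-05). Hspa5 and Herpud1 were singled out for their promoters. Derl3 and Creld2 were printed because, among ER list genes with the ER stress element besides Hspa5, their called log2 fold changes were largest. Their high levels beside the element were thus set by that choice. The shares were counted in windows from 250 bases before to 50 bases after the start, over any promoter listed for a gene. The first element was found in 9 of the 26 genes of the ER list that were matched (34.6%) and in 0.137% of 27025 mouse genes. The second was found in 2 of the 26 (7.69%), in one of them after the start, and in 0.0444% of all. The Xbp1 element TGACGTGG was found in 2 of the 26 (7.69%) and in 0.714% of all, and of the 26 genes matched for the translocation and export list 0 held the first or second element and 1 (3.85%) the Xbp1 element. The matches describe these windows and not the binding of a factor.

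**Figure D4:**
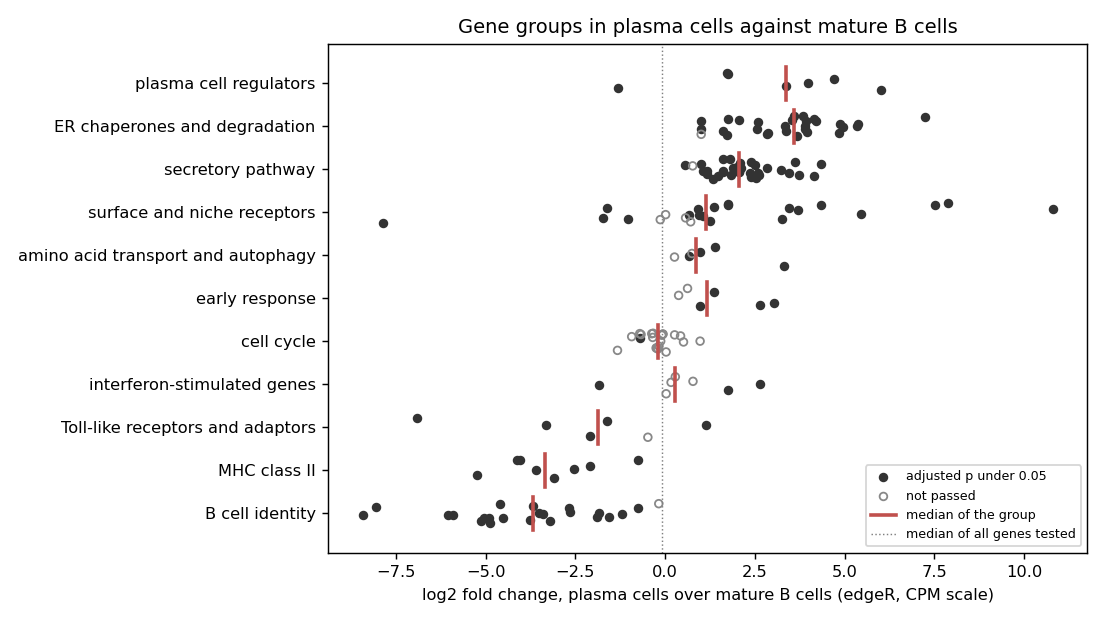
Each point is a gene of a list, placed by its log2 fold change between plasma cells and mature B cells in edgeR's fit. Filled points passed an adjusted p of 0.05, red bars are list medians, and the dotted line is the median of all genes tested. The ER list (median 3.58) lies to the right and the B cell identity list (median -3.69) to the left. Genes with no UMI in a class (Tnfrsf17, Ccr7, Ciita, S1pr1 and Tlr1) stand at fitted values that depend on the prior count.

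Surface receptors differed in both directions. Of 24 tested, 16 were higher and 4 lower, with a median log2 fold change of 1.15. Tnfrsf17 (BCMA, ENSMUSG00000022496, GRCm38, chromosome 16 from 11313812 to 11320074, plus strand) had 277 and 331 CPM in TLR9-/- plasma cells, 225 and 412 CPM in WT plasma cells and no UMI in any mature B cell. It was at least 464-fold higher against 3 UMIs over all mature B cells (adjusted p = 0.00011). Ccr10, the homing receptor of IgA-secreting cells for epithelia, had 33, 33, 9 and 13 UMIs in plasma cells and 0, 2, 0 and 0 in mature B cells (ratio 316, counting interval 84.9 to 2650, adjusted p = 2.3e-05). Cd28, a costimulatory receptor that also supports long-lived plasma cells, had 19, 15, 15 and 16 UMIs against 0, 0, 0 and 2 (ratio 233, counting interval 62.1 to 1968, adjusted p = 4.8e-05). Sdc1 was higher by 5.44 on the log2 scale (standard error 0.27, adjusted p = 1.8e-05). The surface antigens Ly6a (Sca-1) and Ly6c2 were the most abundant of the list in plasma cells, with 2982 to 3525 and 1919 to 2805 CPM and log2 fold changes of 3.45 and 3.24. Among the 4 lower genes, Tnfrsf13c, the receptor for BAFF, was at -1.63 (adjusted p = 0.000905) and S1pr1, which leads lymphocytes out of tissues, had no UMI in plasma cells and was at least 9.6-fold lower. Cxcr4, the receptor that holds cells in the marrow, had 36.9, 10.7, 43.6 and 101 CPM in plasma cells against 82.1, 69.6, 69.1 and 133 CPM (-1.04, adjusted p = 0.0496), which is near the threshold. Tnfrsf13c, Cxcr4 and Sdc1 were singled out after their values were seen.

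The largest difference outside the immunoglobulin genes was that of Prg2 (ENSMUSG00000027073, GRCm38, chromosome 2 from 84980461 to 84983632, plus strand), the major basic protein of eosinophil granules. It had 1961, 1421, 829 and 1588 CPM in plasma cells and no UMI in mature B cells, at least 2305-fold higher (adjusted p = 5.8e-05). It was spread over the class, with a UMI in 35, 14, 22 and 16 members. The members held 41.2%, 8.27%, 76.0% and 20.7% of all Prg2 UMIs of the libraries. Epx, the peroxidase of eosinophils, had no UMI in any member, and all cells together had 27, 98, 0 and 14 UMIs. Ear2, a ribonuclease gene of eosinophils and other myeloid cells, had 1, 0, 0 and 1 UMIs in the members and 575, 604, 383 and 541 in all cells. The part of eosinophil transcripts in the Prg2 level was not tested. Trf (transferrin) was also among the 10 largest, with 268, 123, 167 and 281 CPM against 0, 1.45, 1.77 and 0 (log2 fold change 7.50, adjusted p = 4.2e-05). The members held 11.35%, 4.57%, 7.10% and 8.36% of all Trf UMIs of the libraries. The remaining places among the 10 largest were held by Ighg2b, Ighv1-81, Ighv1-53, Igkv10-96 and Iglv1, which come from the same kind of transcript as the genes of the rule and are given without a test.

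**Figure D5:**
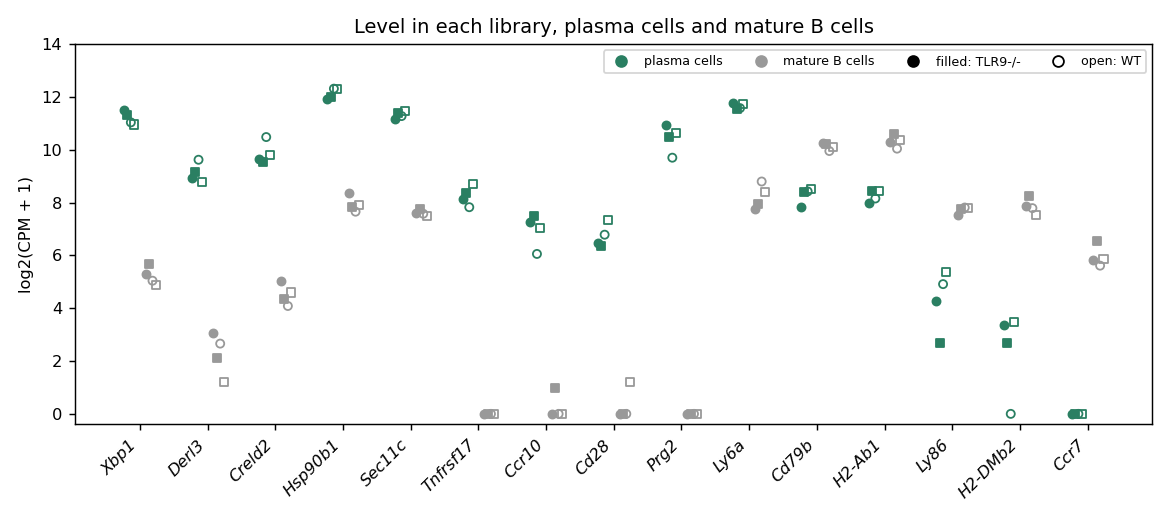
Level of 15 genes as log2(CPM + 1) in plasma cells (green) and mature B cells (grey) of each library, with TLR9-/- filled, WT open, library 1 as circles and library 2 as squares. For each gene shown, the 4 plasma cell levels and the 4 mature B cell levels do not overlap.

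The B cell program was lower as a group. Of 23 genes tested, 22 were lower and 0 higher, with a median log2 fold change of -3.69, and Blnk, an adaptor of the B cell receptor, missed the threshold (-0.18, adjusted p = 0.582). Ccr7, which leads B cells to lymph nodes, had 23, 193, 27 and 90 UMIs in mature B cells and none in plasma cells, at least 15.5-fold lower (adjusted p = 0.0052). Ciita, the master activator of MHC class II, had 10, 168, 20 and 107 UMIs against none, at least 14.2-fold lower (adjusted p = 0.0078). The signalling chains of the B cell receptor were kept in part. Cd79a had 1342, 1165, 1076 and 1679 CPM against 2053, 2275, 2251 and 2125 CPM (-0.75, adjusted p = 0.028), and Cd79b was lower by more (-1.84, adjusted p = 0.00044). All 8 MHC class II genes were lower, with a median of -3.35. H2-DMb2 was at -5.24, H2-Oa at -4.13 and H2-Ab1 at -2.09. Cd74, the invariant chain, was lower by less, with 5208 to 6454 CPM against 7829 to 11582 CPM (-0.77, adjusted p = 0.047). Other genes with no UMI in plasma cells among the 10 lowest were Fam3c, Zfp318, Rasgrp1, Gm15675, Igkv3-10, Igkv3-12 and Igkv8-24, with lower bounds between 7.7-fold and 19.0-fold.

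Toll-like receptors and their partners, the group nearest to the deleted gene, were sparse. Of 20 genes listed, 14 could not be tested, 4 were lower, 1 was higher and the median was -1.86. Tlr1 had 11, 42, 13 and 31 UMIs in mature B cells and none in plasma cells, at least 4.5-fold lower (adjusted p = 0.017), and Ly86 (MD-1) was at -3.32 (adjusted p = 0.00032). The kinase gene Irak1 was higher by 1.13 (adjusted p = 0.020), and Unc93b1, the chaperone that brings TLR9 to endosomes, did not pass (-0.48, adjusted p = 0.072).

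The other lists had fewer calls. Of 6 early response genes tested 4 were higher, with a median of 1.16, among them Fos (3.03, adjusted p = 1.8e-05), Fosb (2.64) and Zfp36 (0.96). Fos had 960, 123, 436 and 191 CPM in plasma cells, high in the libraries numbered 1, as in mature B cells (123, 15.5, 60.3 and 17.3 CPM). Of 6 amino acid transport and autophagy genes 4 were higher, with a median of 0.86, led by Slc3a2, the heavy chain of amino acid transporters (3.30, adjusted p = 4.8e-05). Of 7 interferon-stimulated genes Bst2 (2.63, adjusted p = 0.00014) and Zbp1 were higher and Ifi203 was lower (-1.86, adjusted p = 0.0040). Of 3 survival genes Bax was higher (0.54, adjusted p = 0.031), and Mcl1, on which plasma cells depend, did not pass (0.33, adjusted p = 0.178). Of 21 cell cycle genes 0 were higher and Tubb5 was lower in CPM (-0.70, adjusted p = 0.034), but not in UMIs per cell (0.051). Of the cytokines Tgfb1 alone could be tested (-0.87, adjusted p = 0.059). Of 4 immunoglobulin constant genes outside the rule, among them Iglc1 with 3009 to 10214 CPM, all were higher, with a median of 3.26 and no weight given to a test.

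No gene passed the test between the genotypes in plasma cells. The edgeR quasi-likelihood test on the summed UMIs of the members called 0 of 1590 genes (0.0%) at a Benjamini-Hochberg adjusted p under 0.05, 84 (5.28%) had an unadjusted p under 0.05, and DESeq2 called 26. In this comparison CPM was scaled on plasma cells alone and is lower than in the one with mature B cells. Xbp1 had 1774, 1569, 1282 and 1232 CPM, higher in both TLR9-/- libraries but by less than the model's error allows to call (log2 fold change 0.41 ± 0.46 SE). Tnfrsf17 had 169, 204, 138 and 257 CPM (-0.059 ± 0.35 SE), with the genotypes overlapping, and a UMI of it was found in 27 of 50, 16 of 21, 17 of 30 and 11 of 20 members. The ER list had a median log2 fold change of -0.15 over 30 genes, 9 of them positive, and the translocation and export list -0.07 over 32. In the ER list 7 genes were higher in TLR9-/- between the libraries numbered 1 (median -0.36). Between those numbered 2, 17 genes were higher (median 0.09). The regulators had -0.50 over 7 genes and the surface receptors -0.0047 over 19, beside a median of -0.00075 for all genes. Further from 0 were the stress genes of the unfolded protein response, the interferon-stimulated genes, the cell cycle genes and the immunoglobulin constant genes. None of their genes passed. The immunoglobulin constant genes had -0.91 over 6 genes, 2 of them positive, and no weight is given to a test of them. The stress genes had -1.38 over 3 genes, 0 of them positive, and 1 had an unadjusted p under 0.05. That median is the value of Ddit4, which had 12, 0, 9 and 9 UMIs. The interferon-stimulated genes had -0.91 over 4 genes, 0 of them positive, and 2 had an unadjusted p under 0.05. Of these 4 genes, 0 were higher in TLR9-/- between the libraries numbered 1 (median -1.025). Between those numbered 2, 2 genes were higher (median -0.54). The cell cycle genes had 0.58 over 10 genes, 9 of them positive, but 7 of these 9 were lower in the TLR9-/- library 1 than in the WT library 1. The medians of this list were -0.65 between the libraries numbered 1 and 1.99 between those numbered 2, where 5 of the 21 TLR9-/- members had 3 or more mitotic UMIs. The neutrophil markers had 6.45 over 5 genes, all positive, and the erythroid markers -6.29 over 2, from the few members described above.

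The genes with the lowest p in that comparison were singled out after their values were seen, and they came from few cells. They were Lcn2, a neutrophil granule gene (91, 158, 1 and 1 UMIs, adjusted p = 0.111), Ighv5-17 and Ighv1-22, the hemoglobin gene Hba-a1 (5, 0, 111 and 159 UMIs, adjusted p = 0.119) and Ighg1, where the immunoglobulin genes are given without a test. A single member held 91.2% and 77.8% of the Lcn2 UMIs in the TLR9-/- libraries and 97.3% and 96.9% of the Hba-a1 UMIs in the WT libraries. With immunoglobulin genes and Jchain taken out the test called 13 of 1610 genes (0.807%), and with the members that carry other lineages' markers left out as well it called 1. Against the genotype difference in mature B cells, that in plasma cells differed for 7 of 3512 genes (0.199%), of which 6 (0.171%) were relatively higher and 1 (0.0285%) relatively lower in TLR9-/- plasma cells (edgeR's class and genotype interaction). They were the light chain genes Igkv6-15, Igkv8-28 and Igkv8-27, the neutrophil genes S100a8, S100a9 and Chil3, and, as the lower gene, Ifitm3. The light chain genes had at least 10 UMIs in at most 3 members of a library. They are counted among the 7 and the 6 above, but no weight is given to their test. Without the members with 10 neutrophil UMIs the log2 interactions of the neutrophil genes went from 5.55 to -0.30 for S100a8, from 7.11 to -0.40 for S100a9 and from 3.72 to 1.17 for Chil3, and none passed. In this setting cells were left out of the plasma cells only, and mature B cells with neutrophil UMIs were kept. The log2 interaction of Ifitm3 was -3.23. It was of like size where the call was lost, at -2.71 without the members with doublet markers (adjusted p = 0.381), -3.46 without those with 10 neutrophil UMIs (adjusted p = 0.258) and -2.90 without the WT library 1 (adjusted p = 0.189).

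The classes were compared with each other in the libraries that held at least 5 cells of each. These were the TLR9-/- library 2, with 13 IgA and 7 IgM members, and the WT library 1, with 21 and 5. The edgeR quasi-likelihood test with the library as a block called 0 of 956 genes (0.0%), 41 (4.29%) had an unadjusted p under 0.05, and DESeq2 called 2. Of genes outside the immunoglobulin loci, Pycard, the inflammasome adaptor, had the lowest p, with 94 and 55 UMIs (738 and 458 CPM) in IgA and 9 UMIs and 1 UMI (95.8 and 38.8 CPM) in IgM members (3.11 ± 0.51 SE on the log2 scale, adjusted p = 0.339). Crip1 had 111 and 128 against 9 and 8 UMIs (2.49, adjusted p = 0.560). Chst1 ran the other way, with 1 and 0 UMIs in IgA and 18 and 7 UMIs in IgM members, and so did Ctss, the protease cathepsin S, with 133 and 183 against 511 and 582 CPM (-1.80, adjusted p = 0.876). These were singled out after their values were seen, and none passed the threshold. The ER list had a median of 0.71 in the fit, beside 0.03 for all genes, with 25 of 27 genes positive and 0 passing, but the libraries differed. In the TLR9-/- library 2 the IgA minus IgM difference in log2(CPM + 1) was positive for 25 of the 27 genes (median 1.24), and in the WT library 1 for 12 (median -0.051). The IgM sum of the TLR9-/- library 2 also carried 2725 UMIs of S100a8 and 3501 of S100a9, against 135 and 161 in its IgA sum. Without the members with 10 neutrophil UMIs, which left 4 IgM members in that library, 22 genes (median 0.51) and 20 genes (median 0.36) were positive. Igkv14-126 had 7472 and 1823 UMIs in IgM members and none in IgA members, but a single member held 7432 of the first and another all of the second.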

How the data were processed

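Per the labels and the file headers, the authors aligned 5′ single-cell libraries of 4 mice to mm10 with Cell Ranger (3.0.1 in the matrix headers) and deposited UMI counts per gene and called cell, before depth was equalised. The mitochondrial limit, printed as 0.10% in the methods, was read as a fraction. No doublet caller was run. Members, gene lists and tests were chosen with earlier results of these data known. Genes were named by rule: the 10 largest called differences in each direction, and in each list the 2 most abundant and the 2 with the largest called difference. Kept cells of TLR9-/- 1 and 2 and WT 1 and 2 held 50204578, 63958243, 31210188 and 41384657 UMIs, and their plasma cells 437239, 339819, 248232 and 208515. UMIs of a class were summed per library, low genes were removed by edgeR's filterByExpr, and edgeR 4.0.16 (TMM, glmQLFit, glmQLFTest) was run in R 4.3.3, with DESeq2 1.42.0 as an alternative. The scripts were tested on simulated counts. Other alternatives varied the rule, the filters, the block and the libraries left in. Settings without members that carried doublet markers or 10 neutrophil UMIs changed the plasma cells only, and the mature B cells stayed the same. Nothing states how replicate numbers relate to the 2 experiments. P values between genotypes measure the spread between 2 mice of each, those between plasma and mature B cells the spread of the class difference over 4 mice, and those between IgA and IgM members its spread over 2.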

Additional observations from a re-analysis of the deposited data

Results flagged for a closer look

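For 7 of 3512 genes (0.199%), the difference between the genotypes was another in plasma cells than in mature B cells, by the class and genotype interaction in edgeR's quasi-likelihood test with Benjamini-Hochberg adjustment. Of these, 6 were relatively higher in TLR9-/- plasma cells and 1 lower. The light chain genes among them come from the same kind of transcript as the genes of the rule and from few cells, and are given as values without a test.

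Igkv6-15 (ENSMUSG00000094797, GRCm38, chromosome 6 from 70406469 to 70406992) had 11474 and 33708 UMIs in TLR9-/- and none in WT plasma cells, against 22, 377, 108 and 253 UMIs in mature B cells. It had at least 10 UMIs in 3 members of each TLR9-/- library. Igkv8-28 had 5072 and 7283 UMIs against none in WT plasma cells, from 2 members and 1 member with at least 10 UMIs. Igkv8-27 had 0 and 6030 UMIs against none, and a single member held 99.7% of them.

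S100a8 (adjusted p = 0.0298), S100a9 (adjusted p = 0.0298) and Chil3 (adjusted p = 0.0301) are abundant in neutrophils. S100a8 had 1012 and 2860 UMIs in TLR9-/- and 26 and 37 in WT plasma cells, and a single member held 87.5% and 85.8% of the TLR9-/- UMIs. S100a9 had 953, 3662, 5 and 23 UMIs, and Chil3 had 38, 199, 6 and 2. In mature B cells S100a8 had 1155, 10394, 3784 and 6872 CPM. The log2 interaction was 5.55 (standard error 0.61) for S100a8, 7.11 (0.78) for S100a9 and 3.72 (0.42) for Chil3. Without members with 10 neutrophil UMIs these values were -0.30, -0.40 and 1.17, and without members with doublet markers they were 2.53, 2.42 and -5.42, and no call was left under either setting. Both settings left out plasma cells only and kept all mature B cells.

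Ifitm3, an antiviral membrane protein, had 231 and 107 CPM in TLR9-/- and 465 and 412 CPM in WT plasma cells, and 326 and 248 CPM in TLR9-/- and 69.1 and 95.1 CPM in WT mature B cells (log2 interaction -3.23, standard error 0.35, adjusted p = 0.0298). The plasma cell values rest on 50, 20, 64 and 41 UMIs, of which the leading member held 20%, 30%, 34.4% and 43.9%. The TLR9-/- libraries were both below the WT libraries in plasma cells and both above them in mature B cells. The call was lost without members with doublet markers (-2.71, adjusted p = 0.381), without members with 10 neutrophil UMIs (-3.46, adjusted p = 0.258) and without WT library 1 (-2.90, adjusted p = 0.189), and held at an adjusted p between 1.1e-10 and 0.0376 under the other settings.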

How the results depend on the processing

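The difference in plasma cell share kept its sign under each planned limit on Jchain, immunoglobulin share and mitochondrial UMIs, but fell from 0.0953 to 0.0294 percentage points at 20% immunoglobulin and to 0.0544 without members with 10 neutrophil UMIs, and ranged from -0.0188 to 0.209 percentage points with 1 library left out. No source ties the replicate numbers to the 2 experiments. The deviations of same-numbered libraries had a correlation across genes of -0.0632 in plasma cells and 0.189 in mature B cells. Without immunoglobulin genes and Jchain it was 0.033 in plasma cells and 0.226 in mature B cells. Mature B cells made up 1.22% and 1.76% of the libraries numbered 1 against 5.55% and 4.77% of those numbered 2. With the replicate block the difference was 0.0953 and the genotype test of plasma cells again called 0 genes. Without the replicate block, plasma cells against mature B cells gave 1027 calls and IgA against IgM members 0. Counts moved by more than 1.5 times as follows, and the cause was not tested unless the setting itself removes cells or genes. DESeq2 called 26 genes between the genotypes, 11 for the interaction and 2 between IgA and IgM members. With no filter on low counts there were 130, 94 and 41 calls, and 1579 against mature B cells. With immunoglobulin genes removed there were 13 calls between the genotypes. Removing as well the members with markers of other lineages or 10 neutrophil UMIs, chosen after seeing the data, left 1 there and 12 for the interaction. Mature B cells with at least 4 Ighd UMIs gave 558 calls. For the interaction, 3 calls were left without members with doublet markers and 2 without those with 10 neutrophil UMIs. With 1 library left out, calls ranged from 0 to 22 between the genotypes and from 7 to 14 for the interaction, where the 16 and 22 calls between the genotypes came without TLR9-/- library 1 and 2, a lone library being assumed to vary like the others. Among 782 values of single named genes under these settings, 702 kept direction and call, 50 lost the call, 13 gained it and 17 reversed. In UMIs per cell, chosen after seeing the data, Hmgb2 (0.60), Stmn1 (0.37), Tubb5 (0.051) and Unc93b1 (0.26) reversed. Ifi27l2a, near 0, had -0.28 with no filter, -0.074 with immunoglobulin removed, -0.055 without doublet markers, -0.13 with both removals, -0.0022 with 4 Ighd UMIs, and from -0.11 to 0.22 with 1 library left out. Interactions of neutrophil genes reversed under some removals of members. S100a8 had -0.30 and S100a9 -0.40 without members with 10 neutrophil UMIs and -0.60 and -0.87 with both removals, and Chil3 had -5.42 without doublet markers and -5.25 with both removals. Without doublet markers S100a8 (2.53) and S100a9 (2.42) kept their direction, as did Chil3 (1.17) without members with 10 neutrophil UMIs, but lost the call. For IgA against IgM members, leaving out a library or carriers of other markers left fewer than 2 libraries and could not be run. Depth limits the genes that could be compared, with 1590 tested in plasma cells alone.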
